A study of Mus musculus with 24 samples.

Results

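The cells described here are 5 single cells of a plate of 24 that held almost no transcript of Klf1. Every cell came from fetal liver of C57/Bl6J mouse embryos at day 14.5 and was sorted as a burst-forming unit-erythroid (BFU-E), the earliest progenitor restricted to the red cell lineage. Magnetic beads had first removed cells bearing Sca-1, CD41, CD16/32, Ter119, CD11b, Ly-6G, CD45R or CD3e, and the remainder was stained for CD117, CD71 and CD24. There was no treatment, mutant or second group, and the labels tie no cell to an embryo. The 5 cells were chosen by a measured value, their own Klf1 level: cells 1, 9, 19, 23 and 24, in wells A1, C3, G1, H2 and H3, had Klf1 under 10 CPM (counts scaled to 1000000 per cell), and the other 19 cells had more. The cells share 1 label and were split by their own expression, so all values below describe these 24 cells. No p-value was computed, and neither the 5 nor the 19 cells are replicates of a condition.

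KLF1 is a zinc finger transcription factor that binds CACCC boxes and switches on globin, haem synthesis, membrane skeleton and blood group genes. Together with GATA1 it is required for red cell formation, and both appear as progenitors commit to this lineage. Earlier progenitors and those of the white cell lineages instead carry CD34, the stem cell surface antigen, and PU.1 (gene Spi1), the Ets factor that directs granulocyte, monocyte and lymphoid genes and opposes GATA1.

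Klf1 (ENSMUSG00000054191, GRCm38 chromosome 8, 84901928 to 84905291), the gene used for the choice, stood at 2.48, 2.85, 0.81, 3.42 and 8.12 CPM in cells 1, 9, 19, 23 and 24, or 3, 4, 1, 3 and 10 counts. In the other 19 cells it ran from 32.4 to 1008 CPM with a median of 502. The cell just inside the threshold was cell 24, and the cell just outside it was cell 10 at 32.4 CPM, followed by cell 8 at 244 CPM. Of the promoters shown next, the first is that of Klf1 itself, those of Cpox, Kel and Alad belong to genes lower in each of the 5 cells, and that of Mpo belongs to a gene higher in each. Each example holds a marked motif, which other shared genes can lack. All are RefSeq windows on GRCm38.p6, 250 bases before to 50 after the annotated start, read 5′ to 3′ on the gene's strand. Capitals mark GATA motifs (AGATAA or TGATAA) and CACCC boxes (CCNCNCCC) on either strand in all but the Mpo window, where they mark GAGGAAGT, a form of the PU.1 motif.
Klf1, chr8:84901732-84902031, plus strand: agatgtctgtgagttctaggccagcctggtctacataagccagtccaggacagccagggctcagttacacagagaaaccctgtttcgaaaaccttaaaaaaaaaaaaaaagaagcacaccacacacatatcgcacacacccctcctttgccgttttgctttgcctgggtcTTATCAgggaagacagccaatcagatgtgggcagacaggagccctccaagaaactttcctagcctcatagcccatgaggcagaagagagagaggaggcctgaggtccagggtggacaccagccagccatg
Cpox, chr16:58669958-58670257, plus strand: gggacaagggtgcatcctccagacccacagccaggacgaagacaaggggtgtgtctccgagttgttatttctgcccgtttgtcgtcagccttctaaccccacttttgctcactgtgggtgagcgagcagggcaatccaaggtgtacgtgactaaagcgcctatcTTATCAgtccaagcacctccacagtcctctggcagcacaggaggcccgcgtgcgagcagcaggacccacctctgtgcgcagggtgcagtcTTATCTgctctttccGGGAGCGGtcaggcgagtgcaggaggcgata
Kel, chr6:41704276-41704575, minus strand: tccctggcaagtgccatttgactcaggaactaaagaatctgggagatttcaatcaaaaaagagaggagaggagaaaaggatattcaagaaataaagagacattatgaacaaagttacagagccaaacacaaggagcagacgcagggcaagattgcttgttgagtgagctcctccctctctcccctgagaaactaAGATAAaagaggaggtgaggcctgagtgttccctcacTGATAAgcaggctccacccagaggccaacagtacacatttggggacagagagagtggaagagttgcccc
Alad, chr4:62519860-62520159, minus strand: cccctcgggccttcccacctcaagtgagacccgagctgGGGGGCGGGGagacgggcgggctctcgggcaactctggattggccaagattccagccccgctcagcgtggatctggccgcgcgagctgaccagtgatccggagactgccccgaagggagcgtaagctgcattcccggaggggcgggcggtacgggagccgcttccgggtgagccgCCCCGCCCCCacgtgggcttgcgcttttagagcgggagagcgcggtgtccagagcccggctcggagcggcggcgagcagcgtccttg
Mpo, chr11:87793534-87793833, plus strand: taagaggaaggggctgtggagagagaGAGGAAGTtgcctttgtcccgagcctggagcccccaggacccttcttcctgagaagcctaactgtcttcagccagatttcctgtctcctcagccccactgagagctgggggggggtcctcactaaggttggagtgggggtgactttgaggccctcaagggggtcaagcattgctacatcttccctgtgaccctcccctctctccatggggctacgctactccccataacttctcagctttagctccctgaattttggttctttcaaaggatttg

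Total counts were 876983 to 1404651 in the 5 Klf1-low cells and 1135880 to 2155010 in the other 19, and 4767 to 6426 genes against 5013 to 7349 had at least 5 counts. Thinned to 876983 counts each, the Klf1-low cells had 4684 to 6270 genes and the other cells 4933 to 6962. Mitochondrial transcripts took 3.15 to 4.92% of counts in the Klf1-low cells and 2.18 to 4.5% in the others. A gene with no count could still stand at up to 2.14 to 3.42 CPM in a Klf1-low cell and 1.39 to 2.64 CPM in another cell, from counting error alone. Of the 8 cells in each of 3 plate columns, 2, 1 and 2 were Klf1-low. Cell 10 stood apart among the 19: its 12 hepatocyte genes summed to 1714 CPM, against at most 63.4 CPM in the other 18, and 10 of them were detected.

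The 5 cells had little or none of several main erythroid transcripts and carried progenitor and white cell transcripts. In cells 1, 9, 19 and 24 this goes against the label BFU-E. Cell 23 was mixed, with Gata1 at 886 CPM and Car2 at 1229 CPM. All 5 were chosen for lacking an erythroid transcript, and their identity was not tested. Among the erythroid markers, Epor was under 5 counts in all 5 cells, Gata1 in 4, Blvrb in 4 and Tfrc in 2. Other erythroid markers were kept: Car2 was detected in all 5, though inside the range of the other 19 only in cell 23. Gfi1b was detected in cells 1, 23 and 24. Kit, the gene of CD117, was detected in each. Cd34 was found in all 5 and in no other cell. They are called Klf1-low cells here, and no other cell type is assigned to them.

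Cd34 (ENSMUSG00000016494, chromosome 1, 194938819 to 194961279) had 1535, 1554, 745, 732 and 156 CPM in the Klf1-low cells, and at most 1.73 CPM in any of the other 19. The sets did not overlap. Detection in 5 of 5 against 0 of 19 cells carries exact binomial 95% intervals of 47.8 to 100% and 0 to 17.6%, which count each cell as 1 draw and say nothing of other embryos. Because a gene had to reach 5 counts in 6 cells to be compared, Cd34 is outside the comparison of all genes. In the same way 820 genes, out of 49585 gene identifiers, were detected in Klf1-low cells and in no other cell. Of these, 669 were in 1 of the 5, 108 in 2, 30 in 3, 12 in 4, and Cd34 alone in all 5. How many genes another set of 5 cells would have to itself was not counted. Whether 820 is an unusual number was therefore not tested.

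Gata1 (ENSMUSG00000031162, chromosome X, 7959260 to 7978071), the factor that works with KLF1 on erythroid genes, separated the 5 cells. It had 2.48, 2.85, 0, 886 and 0 CPM in cells 1, 9, 19, 23 and 24, against 188, 381 and 598 CPM as lowest, median and highest of the other 19. Cell 23 thus held more Gata1 than any of the 19, while the other four Klf1-low cells were below all of them. The mean difference of -5.83 in log2(CPM + 1) became -7.60 without cell 23. Flt3, a cytokine receptor of lympho-myeloid progenitors, had 186, 353, 974.8, 0 and 34.1 CPM in the Klf1-low cells and at most 3.45 CPM in the other 19. Again cell 23 was the exception, with no Flt3 count.

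**Figure D1:**
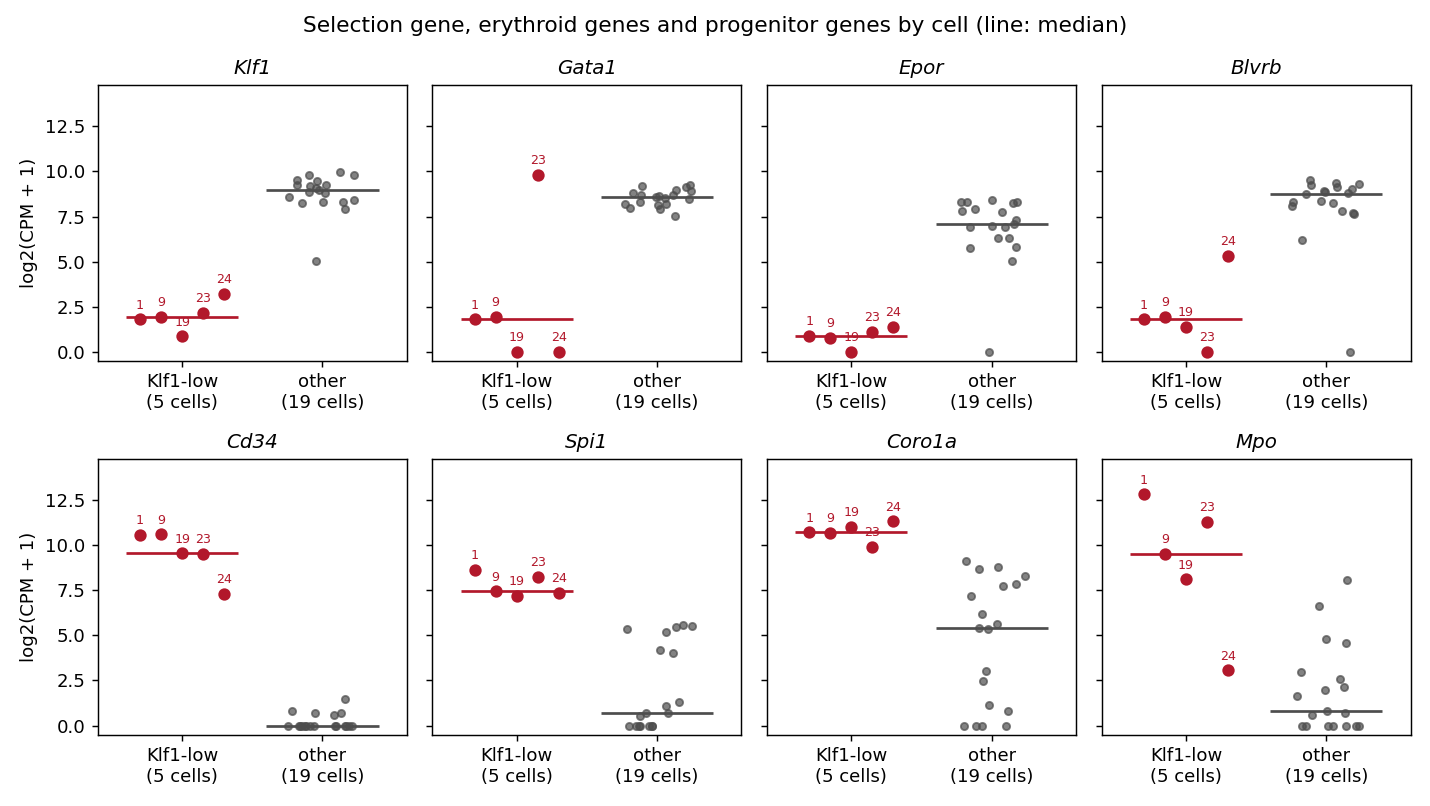
Level of 8 genes in every cell as log2(CPM + 1), with the 5 Klf1-low cells (red, numbered) left of the other 19 cells (grey); each point is 1 cell and each line a median. Cd34, Spi1 and Coro1a do not overlap between the sets, Epor is near 0 in the 5 cells and in 1 of the 19, and Gata1 is low in 4 of the 5 but at 886 CPM in cell 23.

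Across 8265 genes with at least 5 counts in 6 or more cells, Klf1 left out, the median difference of Klf1-low minus other cells in mean log2(CPM + 1) was -0.32, with quartiles of -1.24 and 0.48. A difference of 2 log2 units or more was reached by 503 genes higher in the Klf1-low cells (6.09%) and 1011 lower in them (12.2%). A difference was counted as shared when each of the 5 cells lay at least 1 log2 unit beyond the median of the other 19. By that rule 104 genes (1.26%) were higher in all 5 and 227 (2.75%) were lower in all 5. At least 5 counts in each of the 5 cells backed 94 of the 104, and 150 of the 227 were under 5 counts in every one of them. Ordinary cells deviate too: among the other 19, each cell stood at least 1 unit above the median for 19.2 to 59.6% of the 104 genes (median 27.9%) and below it for 23.3 to 54.2% of the 227 (median 33.5%).

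Most large differences were carried by 3 or more of the 5 cells. Of the 503 higher genes, all 5 cells carried 100, 4 cells 245, 3 cells 134, and fewer cells the other 24. Of the 1011 lower genes, all 5 cells carried 220, 4 cells 410 and 3 cells 248. A further 79 lower genes counted for no cell, because the median of the other 19 was itself too low for a cell to lie 1 unit under it. Where 4 cells agreed on a higher gene, the exception was cell 23 for 57 genes, cell 19 for 56, cell 1 for 48, cell 9 for 44 and cell 24 for 40. For lower genes it was cell 1 for 131, cell 9 for 93, cell 24 for 80, cell 23 for 65 and cell 19 for 41.

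**Figure D2:**
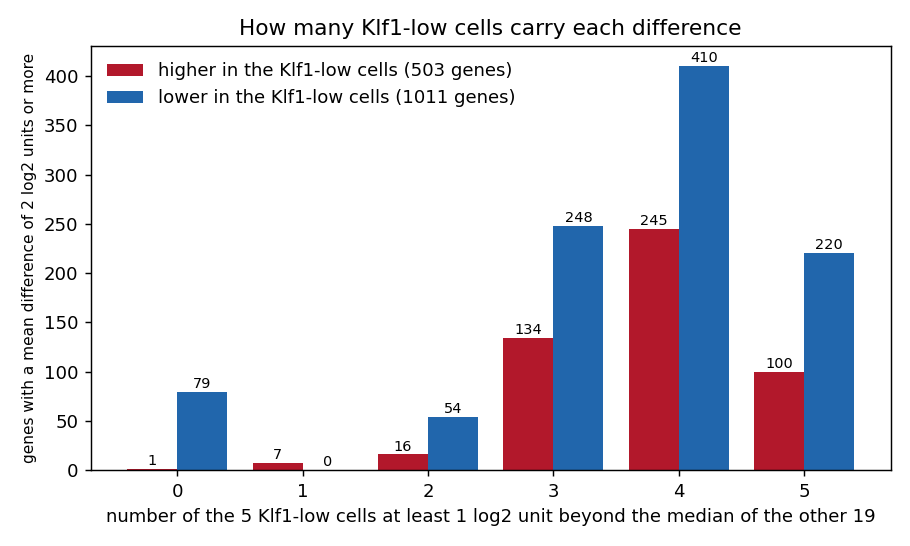
Number of genes (bars from 0) whose mean differed by 2 log2 units or more, by how many of the 5 Klf1-low cells lay at least 1 log2 unit beyond the median of the other 19. The tallest bars, 245 genes higher and 410 lower in the Klf1-low cells, are differences carried by 4 cells.

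Differences that rested on 1 cell, meaning that leaving it out took away over 50% of the difference, were 4 higher genes (0.0484%) and 46 lower ones (0.557%). The rule itself keeps these numbers small, since 1 cell has to supply most of a mean taken over 5. All 4 higher genes rested on cell 19: Tap1, a peptide transporter for MHC class I, Pik3r1, a regulatory subunit of PI3-kinase, Trp53bp1, a DNA repair protein, and Pskh1, a kinase. Cell 19 also decided 33 of the 46 lower genes and cell 23 decided 8. On the linear scale the reliance was wider. In 137 of the 503 higher genes (27.2%) 1 cell held over 50% of the CPM summed over the 5, and this was cell 19 for 68 and cell 23 for 33. Among the 104 higher genes shared by all 5, this held for 12.

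The 12 largest shared excesses in the Klf1-low cells were those of Tespa1, Alox5ap, Mpo, Serpinb1a, Sh2d3c, Sla, Fcer1g, Plppr3, Tpm2, Igfbp4, Coro1a and Tes. Tespa1, an adaptor of lymphocyte receptor signalling, had 111, 211, 437, 469 and 492 CPM in cells 1, 9, 19, 23 and 24, against a median of 0 and a highest value of 51.7 CPM in the other 19, a difference of 7.64 log2 units. No value of the 19 reached the lowest of the 5. Alox5ap, the helper protein of leukotriene synthesis, had 169, 173, 85.1, 171 and 228 CPM against at most 30.9 CPM, a difference of 7.01. Here too the sets were apart, and the 5 cells were within 3-fold of each other. Coro1a, an actin regulator of white cells, had 1674, 1638, 2077, 944 and 2558 CPM in the Klf1-low cells. In the other 19 cells its median was 40.8 and its highest value 557 CPM, so that the sets did not overlap although 13 of the 19 had it.

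Sets that did not overlap at all were found for 17 higher genes (0.206%) and 6 lower ones (0.0726%). The higher ones were Spi1, Rps6ka1, Fxyd5, S100a11, Laptm5, Coro1a, Rac2, Tespa1, Gng10, Serpinb1a, Tmsb4x, Kdm2a, Fcer1g, Sh2d3c, Alox5ap, Bin2 and the predicted gene Gm8885. Spi1 (ENSMUSG00000002111, chromosome 2, 91082390 to 91115756), the gene of PU.1, had 390.3, 172, 146, 299 and 161 CPM in the Klf1-low cells, against a median of 0.622 and a highest value of 46.9 CPM in the others. All 5 cells, cell 23 with its Gata1 included, were above all 19. Fcer1g, the signalling chain of Fc receptors, had 70.7 to 263 CPM in the Klf1-low cells and at most 62.6 CPM in the others. Serpinb1a, an inhibitor of neutrophil proteases, had 47.0 to 295 CPM against at most 9.82 CPM. Among the remaining genes of largest shared excess, Sla, Plppr3, Tpm2, Igfbp4 and Tes, at least 1 of the 19 cells exceeded the lowest of the 5. For Sla, an adaptor that dampens antigen receptor signalling, this was cell 10 at 243 CPM.

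Mpo, the myeloperoxidase of granulocyte granules, was shared by the rule but spread over 3 orders of magnitude. It had 7227, 738, 275, 2507 and 7.31 CPM in cells 1, 9, 19, 23 and 24, against a median of 0.785 and a highest value of 269 CPM in the other 19. Cells 1, 9, 19 and 23 were above all 19, and cell 24 was not. The difference was 6.99 log2 units, and 6.02 without cell 1.

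**Figure D3:**
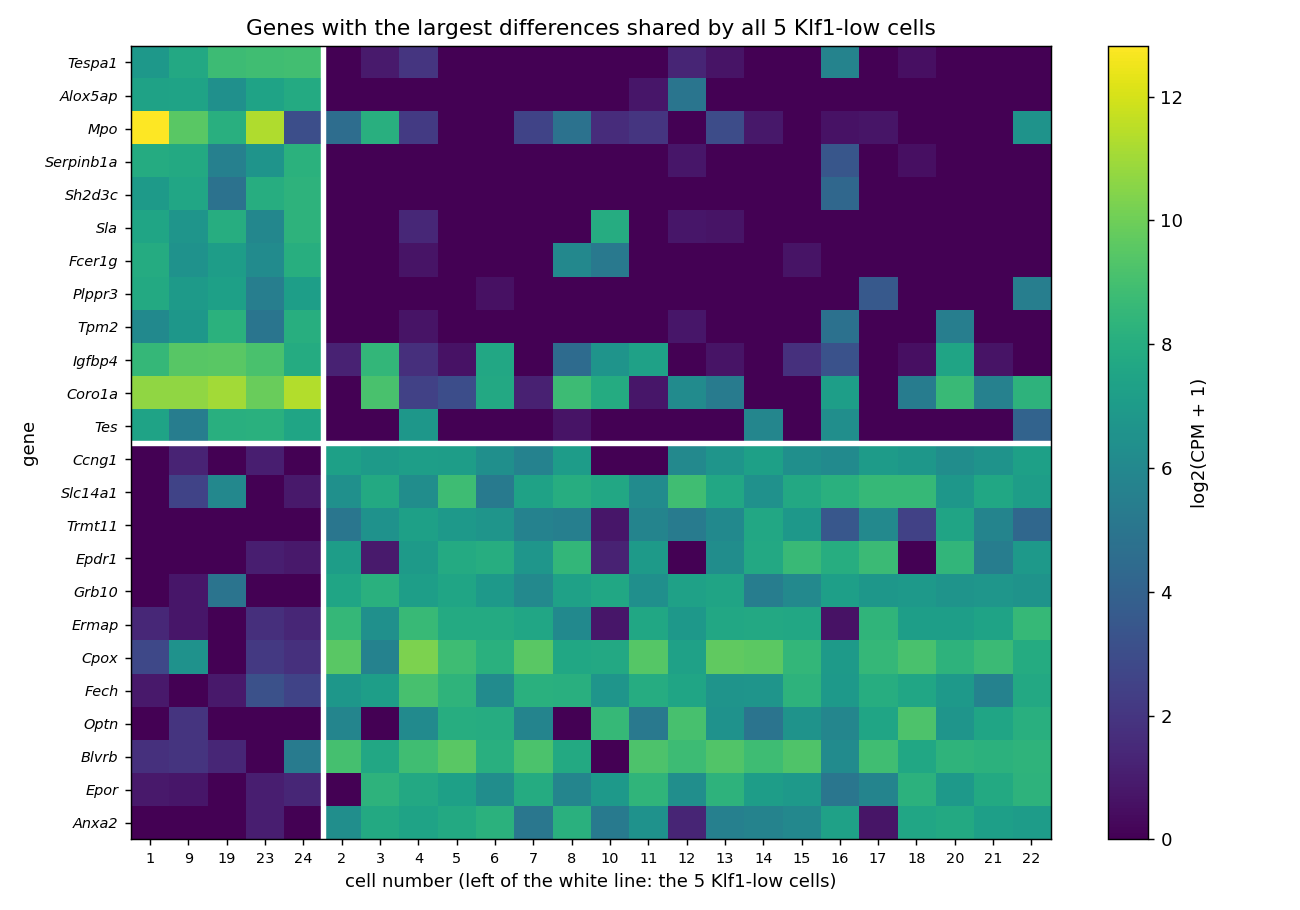
Level as log2(CPM + 1) of the 12 genes with the largest shared excess (top) and the 12 with the largest shared deficit (bottom), in the 5 Klf1-low cells left of the white line and the other 19 cells right of it. Coro1a and Igfbp4 also appear in several of the 19, and Cpox keeps 92.5 CPM in cell 9.

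The shared lower genes included the erythropoietin receptor and haem enzymes. The 12 largest shared deficits were those of Anxa2, Epor, Blvrb, Optn, Fech, Cpox, Ermap, Grb10, Epdr1, Trmt11, Slc14a1 and Ccng1, between -6.04 and -5.54 log2 units. Anxa2, annexin A2, a membrane-binding protein, led with 1.14 CPM in cell 23 and no count in the other four, against 0.652, 134 and 294 CPM as lowest, median and highest of the 19. Epor (ENSMUSG00000006235, chromosome 9, 21958897 to 21963506), through which erythropoietin keeps erythroid progenitors alive, had 0.825, 0.712, 0, 1.14 and 1.62 CPM in the Klf1-low cells. The other 19 cells had a median of 137 and a highest value of 338 CPM. No Klf1-low cell reached 5 counts and 18 of the 19 others did; the exception was at 0. Summed over cells this was 0.839 CPM (exact Poisson 95% interval 0.272 to 1.96) against 165 CPM (161 to 169.8), a difference of -5.99 in mean log2(CPM + 1).

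Haem synthesis was lower at several steps. Alad, which makes porphobilinogen, had 24.8, 4.98, 101, 70.7 and 4.87 CPM in the Klf1-low cells and 124, 399 and 666 CPM as lowest, median and highest of the other 19. Fech, which inserts the iron, had at most 7.98 CPM in the Klf1-low cells and at least 50.3 CPM in the others. Both genes had no overlap between the sets, as did Grb10, an adaptor of insulin and growth factor receptors, Cited4, a CBP/p300 partner, Vamp5, a vesicle protein, and Trmt11, a tRNA methyltransferase subunit. Cpox, the coproporphyrinogen oxidase, had 5.78, 92.5, 0, 3.42 and 2.44 CPM against a lowest value of 51.1 and a median of 368 CPM, so only cell 9 reached the range of the 19. Trmt11 had no count in any of the 5 cells and a single count, 0.69 CPM, in cell 10, so that separation is within counting error. Summed over cells, Trmt11 was at least 146-fold lower in the 5, taking 3 counts over them as the upper limit. Of the 26 haem and iron genes compared, 9 were lower past 2 log2 units and 6 of them in all 5 cells, against 12.2% and 2.75% of all genes, and the median difference was -1.06. The ferritins Fth1 and Ftl1 differed by -0.11 and 0.07.

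Of 33 matched genes reported as KLF1 targets, 22 could be compared, and 11 were lower past 2 log2 units in the Klf1-low cells, 10 of them in all 5 cells. Of all genes, 12.2% were lower past 2 log2 units and 2.75% in all 5 cells, and the list's median was -2.77 against -0.32 over all genes. This median depends on the filter: it was -1.24 over 26 members with 5 counts in at least 3 cells, against -0.26 over all genes, and -0.87 over 32 members with no filter, against -0.09. Its summed level was 521, 793, 609, 894 and 307 CPM in cells 1, 9, 19, 23 and 24, all below the lowest of the other 19 cells, 1214 CPM, whose median was 3271 CPM. Aqp1, a water channel of the red cell membrane, had at most 2.28 CPM in the Klf1-low cells and a median of 76.5 CPM in the others. Kel, which carries the Kell blood group, had at most 1.14 CPM against a median of 29.9 CPM. Ermap, an erythroid surface protein, had 0.712 CPM in cell 9, 2.28 CPM in cell 23 and a median of 201 CPM in the 19. Xpo7, a nuclear exporter, went the other way at 102, 14.95, 125, 2.28 and 39.0 CPM against a median of 0, and its range overlapped that of the 19. Of the globins, Hba-a1 was at most 1.62 CPM in the Klf1-low cells and 30.4 CPM in the others, and Hbb-bt had 83.2 CPM in cell 23 and at most 2.44 CPM in the other four, against at most 18.1 CPM in the 19. Globin copies are near-identical, so these values are uncertain.

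Promoter windows were found for 181 of the 227 lower genes and 78 of the 104 higher ones. A CACCC box (CCNCNCCC, either strand) was in 69.6% of the lower set, 76.9% of the higher set and 69.0% of the windows of 6378 of all genes compared. A GATA motif (AGATAA or TGATAA) was in 14.9%, 8.97% and 9.02%. GAGGAAGT, a PU.1 motif chosen after the values were seen, was in 1.10%, 8.97% and 3.04%, or 2, 7 and 194 windows. CACCC boxes may overlap each other and were counted once per window. The windows of Klf1 and Kel printed above hold GATA motifs and no CACCC box by these letters, and that of Cpox holds both. Unlike Mpo, other genes of largest shared excess, Sh2d3c, Fcer1g, Plppr3, Tpm2, Igfbp4, Coro1a and Tes, have no GAGGAAGT in their windows. Those of the shared lower genes Blvrb, Aqp1, Add2 and Tfr2, like that of Alad, hold CACCC boxes and no GATA motif.

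Erythroid enzymes, carriers and surface proteins showed 13 of 21 genes lower past 2 log2 units, 8 of them in all 5 cells, and none higher, against 12.2% and 2.75% of all genes lower. The list's median was -3.20, and its summed level was 1603, 1899, 1422, 8107 and 1531 CPM against 4792, 6721 and 13078 CPM as lowest, median and highest of the other 19. Cell 23 was above the median of the 19 and the other four were below all of them, but 4178 CPM of the sum in cell 23 was Apoe, apolipoprotein E. Without Apoe cell 23 had 3929 CPM and the other four 1421 to 1828 CPM, against 3417, 5575 and 9968 CPM in the 19, of which 18 were above cell 23. By genes detected cell 23 had 10 of 23, against 7, 9, 6 and 9 in cells 1, 9, 19 and 24 and a median of 15 in the other 19. Blvrb, biliverdin reductase B, had 2.48, 2.85, 1.62, 0 and 39.0 CPM against a median of 437 CPM, and so was low in cell 23 too. Car1, a carbonic anhydrase of red cells, had at most 9.25 CPM against a median of 269.6 CPM. Its relative Car2 had 7.43, 116, 4.86, 1229 and 11.4 CPM against 448 CPM as the lowest of the 19, and so was inside their range in cell 23. Red cell membrane skeleton genes had 4 of 10 lower past 2 log2 units and 2 in all 5 cells, beside the same shares of all genes, with Add2, β-adducin, at most 2.28 CPM in the Klf1-low cells and a median of 76.6 CPM in the others.

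Of the 17 erythroid transcription factors and partners compared, 6 were lower past 2 log2 units, against 12.2% of all genes. In all 5 cells 1 of them, Klf3, was lower, against 2.75% of all genes. Gfi1b, a repressor of erythroid and platelet progenitors, had 71.8, 0.712, 0.81, 249.7 and 250.1 CPM against a median of 356 CPM, and was low in cells 9 and 19. Tal1, the helix-loop-helix partner of GATA1, had at most 1.62 CPM in 4 cells and 44.5 CPM in cell 23, against a median of 35.7 CPM. Lmo2, the bridging protein of that complex, had 145, 256, 1.62, 474 and 2.44 CPM against a median of 427 CPM. In the signalling list, Kit, the stem cell factor receptor and CD117 of the sort, had 84.2, 362, 190.4, 465 and 426 CPM in the Klf1-low cells and a median of 333 CPM in the others, a difference of -0.09. Nr3c1, the glucocorticoid receptor through which BFU-E self-renewal is driven, had 18.98 CPM in cell 1 and no count in the other four, against a median of 56.1 CPM.

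Among genes of the white cell lineages, the summed level of the cytoskeletal list separated the sets. That of the granulocyte and monocyte list overlapped, and the overlap came from its member Lgals1. Of 20 leukocyte cytoskeleton and signalling genes compared, 12 were higher past 2 log2 units against 6.09% of all genes, 8 of them in all 5 cells against 1.26%, and none was lower. Their summed level was 7169, 8211, 12586, 7057 and 10460 CPM in the Klf1-low cells and at most 3948 CPM in the others, with a median of 2043 CPM. Rac2, a small GTPase of blood cells, had 644, 1242, 1234, 1225 and 798 CPM against 2.19, 272 and 640.1 CPM as lowest, median and highest of the 19. Laptm5, a lysosomal protein of blood cells, had 605 to 1820 CPM against at most 523 CPM. Ptprc, which encodes CD45, counted as shared although cell 23 held 1.14 CPM, a single count, against 69.1 to 383 CPM in the other four Klf1-low cells and up to 169 CPM in the 19.

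Of the 13 granulocyte and monocyte genes compared, out of 31 matched, 8 were higher past 2 log2 units, against 6.09% of all genes. In all 5 cells 3 were higher, Mpo, Spi1 and Fcer1g, against 1.26% of all genes. The list's summed level overlapped, at 13969, 2962, 7490, 5610 and 2795 CPM in cells 1, 9, 19, 23 and 24, against 667, 2241 and 6785 CPM as lowest, median and highest of the other 19. Lower was Lgals1, the lectin galectin 1, at 664, 546, 1111, 336 and 57.7 CPM against a median of 1811 CPM. Lgals1 made up 5668 of the 6785 CPM in cell 20, the highest sum of the 19, and 3281 of 5413 CPM in cell 3. The overlap of the summed levels therefore came from this gene. Elane, Ms4a3, Cebpe, Gfi1 and Ly6c2, also of granulocyte and monocyte stages, had no count in any Klf1-low cell. Macrophage genes, 12 of 12, were also at 0 in all 5 cells, and in the other 19 cells the list summed to at most 115 CPM. Hepatocyte genes summed to at most 93.2 CPM in the Klf1-low cells. Of the endothelial and stromal genes, 8 of 11 were at 0 in the 5 cells, Cdh5 and Kdr among them, and Pecam1, a junction protein also found on white cells, had 56.9, 0, 457, 141 and 60.9 CPM against at most 69.0 CPM. The part of other cell types in these differences was not tested.

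**Figure D4:**
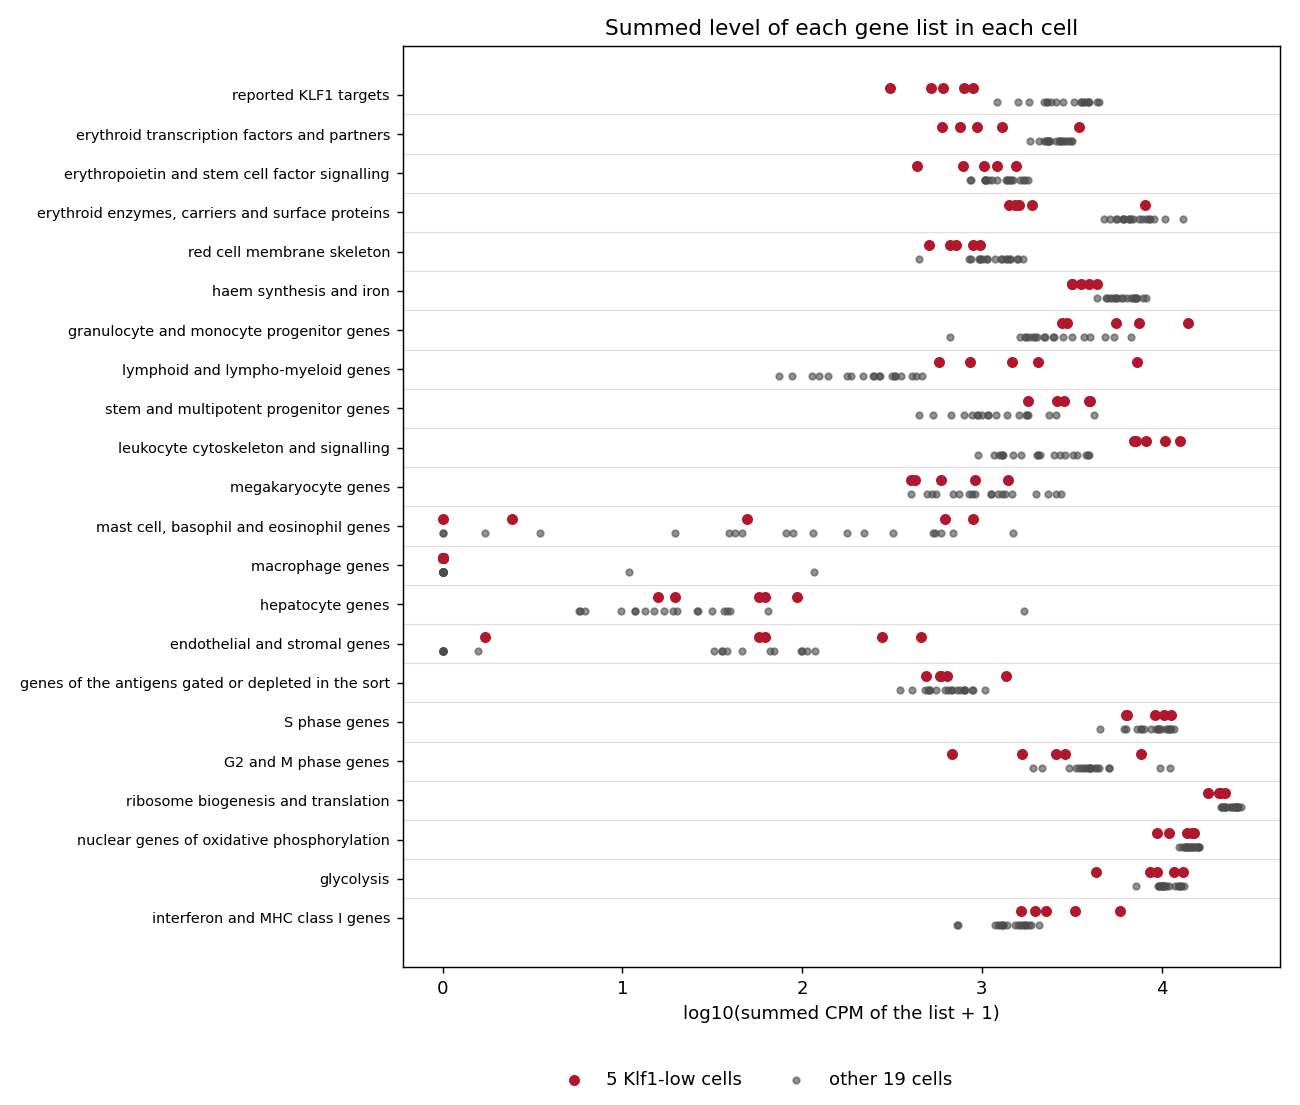
Summed CPM of each gene list in each cell, as log10(summed CPM + 1), with the 5 Klf1-low cells (red) above the other 19 (grey) in each row. The rows of KLF1 targets, lymphoid genes and leukocyte cytoskeleton do not overlap, while S phase and glycolysis rows do.

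Beyond what they shared, the 5 cells differed in the lineage genes they carried. Genes called private below were picked for their excess in 1 Klf1-low cell, and such genes of the other 19 cells were not counted. Cell 19 carried lymphoid genes: 14 of 21 were detected in it, against 7, 9, 2 and 4 in cells 1, 9, 23 and 24 and 1 to 3 in the other 19. Rag1 and Rag2, the recombinases of antigen receptor genes, had 245 and 199 CPM in cell 19 and no count in the other four Klf1-low cells. Il7r, the interleukin 7 receptor, and Lck, a T cell kinase, had 169 and 191 CPM there and likewise no count in the other four. Ighm, the μ heavy chain, had 262, 584, 2068, 0 and 0 CPM in cells 1, 9, 19, 23 and 24 and at most 3.45 CPM in the 19. Pax5, Cd3e, Dntt and Bcl11b, which mark committed lymphocyte stages, had no count in any of the 5. The summed lymphoid level was 1470, 2051, 7317, 862 and 580 CPM in the Klf1-low cells and at most 466 CPM in the other 19, so that each of the 5 was above all 19. In cell 23 this was Cd48, at 830.1 CPM, almost alone: without Cd48 cell 23 had 31.9 CPM, inside the range of the 19, whose highest value was 329 CPM, and cells 1, 9, 19 and 24 had 1344, 1712, 6992 and 359.8 CPM. Only 2 genes of that list passed the filter, of which Cd48, a surface ligand of lymphocytes, was higher past 2 log2 units.

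Cell 1 carried the most granulocyte and monocyte genes, with 22 of 31 detected, against 14, 11, 10 and 13 in cells 9, 19, 23 and 24 and 2 to 11 in the other 19. Prtn3, the granule protease proteinase 3, had 1192, 161, 0, 198 and 99.9 CPM in the Klf1-low cells and at most 97.4 CPM in the others. Irf8, a factor of monocyte and dendritic cell fate, had 670.0 CPM in cell 1, 69.8 CPM in cell 24 and no count in the other three. Csf1r, the receptor of macrophage colony-stimulating factor, had 462 CPM in cell 1 and 74.0 CPM in cell 9 alone. Ctsg, cathepsin G, at 354 CPM, and Csf2rb, the shared chain of interleukin 3 and GM-CSF receptors, at 84.2 CPM, were among the genes most private to cell 1. None of the other 23 cells had more than 2.28 CPM of either.

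Cell 23 combined PU.1 and Mpo with erythroid genes. Besides Gata1 and Car2, Apoe had 2.48, 70.5, 0.81, 4178 and 2.44 CPM in the Klf1-low cells and a median of 1294 CPM in the others. Mfsd2b, the sphingosine-1-phosphate exporter of red cells and platelets, had 594 CPM in cell 23 and at most 2.85 CPM in the other four, against a median of 319 CPM in the 19. Hemgn, hemogen, had 400.2 CPM in cell 23, more than any of the 19, whose highest value was 227 CPM. Epor, Blvrb, Ermap, Aqp1 and Kel were nonetheless at 2.28 CPM or less in it. Tyrobp and Lsp1, an adaptor and an actin-binding protein of white cells, were at 1.14 CPM in cell 23, against 123 to 1082 CPM and 469 to 1041 CPM in the other four. The summed level of the erythroid transcription factors was 3457 CPM in cell 23, above all of the 19, and 596 to 1293 CPM in the other four. Without Gata1 it was 2571 CPM in cell 23, below 3 of the 19. By genes detected cell 23 had 11 of 19 factors, against 14, 10, 6 and 10 in cells 1, 9, 19 and 24 and a median of 15 in the other 19. Its private genes were Slc2a9, a urate transporter, Cd200r3, a receptor of mast cells and basophils, and P3h3, a collagen-modifying enzyme, at 173, 169.9 and 166 CPM, each at 0 elsewhere.

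The stem and multipotent progenitor list did not set cell 9 apart, with 14 of 25 genes detected in it, 12, 12, 11 and 11 in cells 1, 19, 23 and 24, and up to 14 in the other 19. Of single members, cell 9 had Hlf, a factor of stem cell maintenance, at 157 CPM, Hoxa9, a homeobox factor of stem cells, at 122 CPM and its relative Hoxa7 at 263 CPM. Hlf had no count in the other four Klf1-low cells and reached 22.1 CPM in the 19. The genes private to cell 9 were Dync2li1, a dynein chain, Cxcr3, a chemokine receptor, and Oas1g, an interferon-induced enzyme, at 209, 144 and 125 CPM. In cell 24 the private genes were Dhrs2, a dehydrogenase, Ccl5, a chemokine, and Lpcat2, an enzyme of platelet-activating factor, at 385, 573 and 247 CPM. Cpa3, the carboxypeptidase of mast cells and early basophils, had 457 CPM in cell 23, 887 CPM in cell 24 and no count in cells 1, 9 and 19, and reached 290.4 CPM in the 19. Ms4a2, Fcer1a, Prg2 and 6 further genes of mast cells, basophils and eosinophils had no count in any of the 5.

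**Figure D5:**
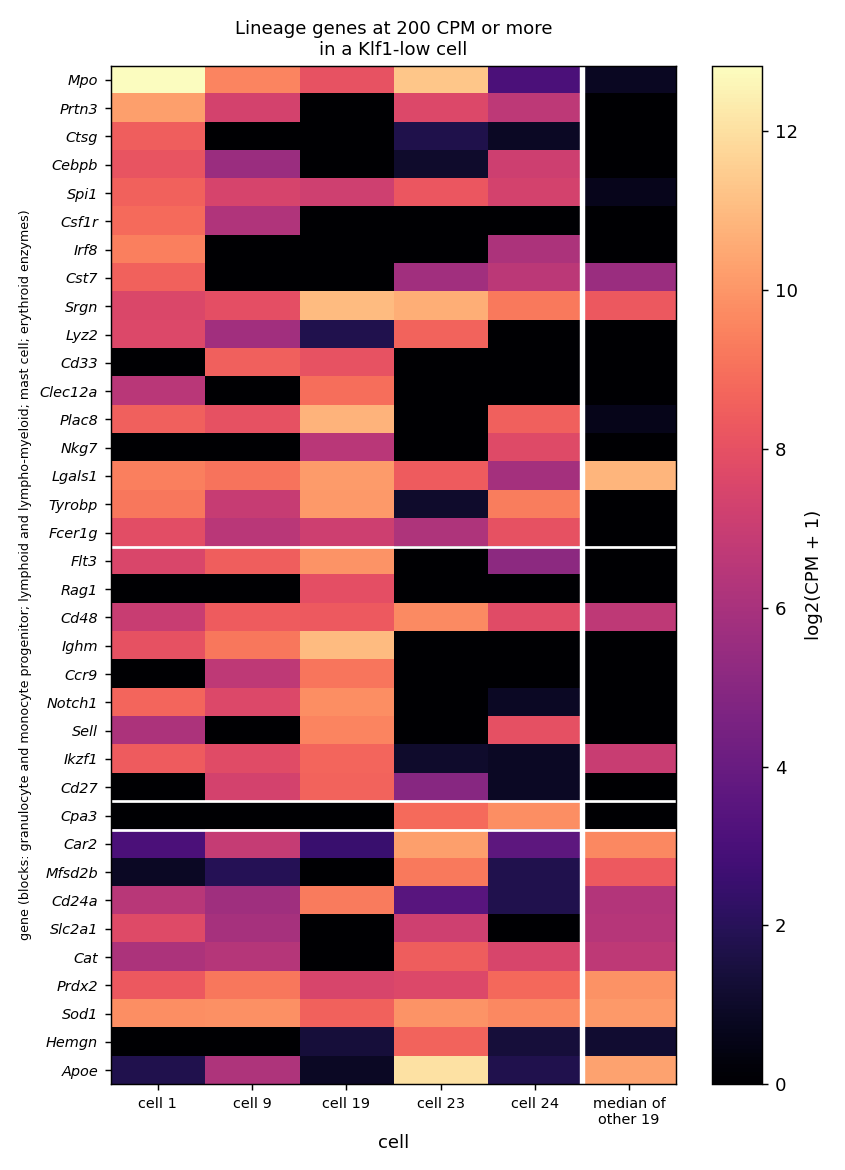
Level as log2(CPM + 1) of lineage genes at 200 CPM or more in at least 1 Klf1-low cell, with the 5 cells left of the white line and the median of the other 19 right of it; blocks hold granulocyte and monocyte, lymphoid, mast cell and erythroid genes. Rag1 appears in cell 19, Ctsg in cell 1, and Mfsd2b and Apoe in cell 23 above the median of the 19, so the 5 columns differ from each other.

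The similarity of whole profiles was also compared. Spearman correlations over the 8265 genes had a median of 0.44 among the Klf1-low cells (0.36 to 0.56, 10 pairs), 0.48 between a Klf1-low cell and another cell (0.35 to 0.57, 95 pairs) and 0.56 among the other 19 (0.46 to 0.68, 171 pairs). These values share cells and vary with the depth of each cell, and they are given as a description. Cell 1 was closest to cell 13 and cell 23 to cell 16, both outside the 5, whereas cells 9 and 24 were closest to cell 1 and cell 19 to cell 24.

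Stem and multipotent progenitor genes, cell cycle genes and metabolic genes separated the sets less. The counts in this paragraph stand beside 6.09% of all genes higher and 12.2% lower. Those in all 5 cells stand beside 1.26% higher and 2.75% lower. Of 13 stem and progenitor genes compared, 3 were higher and 2 lower past 2 log2 units, and the median of 1.16 turned to -0.19 without cell 9. Procr, Mecom, Hoxa5 and Ly6a, the Sca-1 gene, had no count in the 5 cells. Megakaryocyte genes differed in both directions: of 11, 4 were higher and 5 lower. Mef2c was higher, and Gp5 and Itga2b were lower, in all 5 cells. Of 12 genes of erythropoietin and stem cell factor signalling, 2 were higher and 4 lower. In all 5 cells, Sh2b3, an adaptor that restrains cytokine receptors, was higher, and Epor, Nr3c1 and the second transferrin receptor Tfr2 were lower. No S phase gene of 23 passed 2 log2 units in either direction. Of 23 G2 and M phase genes, 5 were lower and none in all 5 cells. Ccnb2, cyclin B2, had 55.3, 4.98, 0, 1381 and 65.8 CPM against a median of 415 CPM, below all 19 in cells 1, 9 and 19 and above all in cell 23. No gene of 21 for oxidative phosphorylation or 14 for glycolysis passed 2 log2 units, and of 20 for ribosome biogenesis 1 did, Bop1, lower, with no count in cell 19.

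Among 17 interferon and MHC class I genes, 6 were higher past 2 log2 units and 1 lower, against 6.09% and 12.2% of all genes. Psmb8, an immunoproteasome subunit, had 158, 347, 349, 75.3 and 185 CPM in the Klf1-low cells and a median of 8.70 CPM in the others, of which the highest, 297 CPM, overlapped. B2m, β2-microglobulin, had 702, 1261, 1881, 414 and 899.9 CPM against a median of 259 CPM, a difference of 1.94, just under 2 log2 units. Ifi30, a lysosomal reductase, had 1.14 CPM in cell 23 and no count in the other four, against a median of 68.6 CPM. Of the genes for the sort antigens, Itga2b, which encodes the depleted CD41, had at most 23.6 CPM in the Klf1-low cells and a median of 87.4 CPM in the others. Tfrc, the gene of CD71, had 24.8, 1.42, 162, 2.28 and 8.93 CPM against a median of 71.6 CPM, and Cd24a had 87.5, 52.0, 624, 10.3 and 2.44 CPM against 78.4 CPM.

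Plate columns 1 and 3 each held 2 Klf1-low and 6 other cells, and column 2 held 1 and 7. Within both columns 82 of the 104 higher genes and 161 of the 227 lower genes passed 2 log2 units. Because the choice of shared genes used these same cells, it nearly fixes their direction within a column, and the part of plate position was not tested. Without cell 10 the shared genes numbered 110 higher, 99 of them among the 104, and 242 lower, 215 of them among the 227. Counted as a Klf1-low cell, cell 10 left 53 of the 104 and 120 of the 227 shared. Cell 10 had Gata1 at 237 CPM, Epor at 123 CPM, no Cd34, no Blvrb and a single count of Trmt11.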

How the data were processed

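Single cells were profiled by Smart-seq2, a full-length method with PCR and no molecular identifiers, and sequenced without strand, per the labels' protocols. The values are raw counts of reads for each gene in 24 cells, used as the authors deposited them. Per the submitters' processing notes, STAR 2.4, featureCounts and GRCm38 were used; which annotation release and which cell filters applied is not given in the sources used here. Symbols and coordinates came from GENCODE M21 (GRCm38), matching 49326 of 49585 identifiers. CPM is not corrected for length, so levels are compared between cells and not between genes, and reads of overlapping or antisense genes cannot be told apart.

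Counts were divided by a cell's total and scaled to CPM, and a gene was called detected at 5 counts. Genes detected in at least 6 cells were compared as the difference of mean log2(CPM + 1), Klf1-low minus other cells. Since a gene found only in the 5 cells cannot pass that filter, such genes are given by value. The members, the threshold of 10 CPM and the 22 gene lists were chosen with earlier results of these data known, so list counts are no independent support. Ahsp was not matched. The genes named are Klf1, Gata1, Cd34, Mpo and Flt3, the 12 shared genes of largest difference in each direction, the shared or largest members of each list, and the 3 genes of 50 CPM or more most private to each low cell. Rows without a symbol, pseudogenes and predicted models were left out of the last part and the 12. Other names were chosen after their values were seen. A few genes falling under these criteria are not reported here. Shares of cells carry exact binomial and summed counts exact Poisson 95% intervals, for counting error only. No gene test was run, since cells of 1 group with no embryo named are not replicates. Alternatives were a pseudocount of 10, TMM scaling (edgeR 4.0.16) and median-of-ratios scaling, filters, thresholds, thinning to 876983 counts, plate columns and leaving out each low cell. The settings of leaving out cell 10, setting the median difference of all genes to 0, and sums of 3 lists without their highest member in cell 23 were added after seeing the data. Promoter windows came from RefSeq (GRCm38.p6), the window nearest the GENCODE start for each gene. Calculations used Python 3.11.15, pandas 2.3.3, numpy 2.4.6 and scipy 1.17.1, and were tested on simulated counts.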

Additional observations from a re-analysis of the deposited data

Results flagged for a closer look

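Among the 5 Klf1-low cells, 16 measures were examined for a cell far from the other four, by the gap to its nearest neighbour over the whole range. Chance flags about 1 in 20 such groups when values are normally distributed. CPM values here were not transformed and can be strongly skewed, so the rate for them is not known. Gata1 in cell 23, at 886 CPM, stood far above the 0 to 2.85 CPM of the other four. The erythroid transcription factors summed to 3457 CPM in cell 23, against 596 to 1293 CPM in the other four, and the erythroid enzymes, carriers and surface proteins to 8107 CPM in cell 23, against 1422 to 1899 CPM. Of the 8107 CPM, 4178 CPM was Apoe, and without it the sum was 3929 CPM in cell 23, against 1421 to 1828 CPM. By genes detected cell 23 had 10 of 23 of that list, against 6 to 9 in the other four. All 3 come from 1 cell, and Gata1 is a member of the transcription factor list, so they are not independent. The lymphoid genes summed to 7317 CPM in cell 19, against 580 to 2051 CPM in the other four.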

How the results depend on the processing

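For the 25 genes with the largest shared differences and the markers compared, all 400 values under the alternatives kept their direction. These genes were chosen mostly by their size in the same cells, and the filters leave a gene's own value unchanged. Their direction was therefore nearly fixed and is no independent support. Of the 400, 347 were within 1 SD of the 5 Klf1-low cells. Trmt11, with no count in these cells, has an SD of 0 there, so even its unchanged values fell outside. For 18 gene lists, 274 of 288 medians kept their sign. Median-of-ratios scaling moved the median of all genes to -0.22, from -0.32, and TMM scaling to -0.30. With a pseudocount of 10 CPM, 126 genes were higher and 169 lower past 2 log2 units and 0 rested on 1 cell; the larger pseudocount shrinks differences of low genes. With no filter, 763 were higher and 90 rested on 1 cell, and with 5 counts in 3 cells 80 rested on 1 cell, since more genes are compared. A difference of 1 log2 unit gave 1297 higher and 2483 lower, and any distance beyond the median gave 326 and 763 shared. With Klf1 under 50 CPM, which adds cell 10, 63 higher and 141 lower genes were shared and 9 rested on 1 cell. Without cell 10, 110 and 242 were shared and 54 rested on 1 cell. Leaving out each low cell gave 161 to 201 higher and 303 to 408 lower shared genes, since 4 cells need to agree, and 117 to 207 resting on 1 cell, whose cause was not tested. Within column 1, 1005 were higher and 1967 lower, 786 and 1384 shared; within column 3, 1177 were higher, 987 and 1065 shared, since 2 low cells need to agree. The stem and progenitor list turned from 1.16 to -0.19 without cell 9; the cause was not tested. No paired analysis was possible because there is 1 group. Depth limits the lower genes, of which 150 of the 227 shared were under 5 counts in every Klf1-low cell.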

Other observations

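Several blood cell genes detected in 4 of the Klf1-low cells and in none of the other 19 could not enter the comparison of all genes; they were chosen here after their values were seen. Emb, embigin, a surface glycoprotein, had 799, 243, 643, 0 and 62.5 CPM in cells 1, 9, 19, 23 and 24, against at most 1.74 CPM in the other 19. Mn1, a transcriptional coregulator, had 94.1, 85.4, 283, 0 and 132 CPM, against at most 0.928 CPM. Ncf4, a subunit of the phagocyte oxidase, had 55.3, 62.6, 162, 0 and 104 CPM and no count in the other 19. In all 3 genes cell 23 was the exception. Arhgef6, a guanine exchange factor for Rac, had 91.6, 0.712, 213, 155 and 104 CPM and no count in the other 19, so there cell 9 was the exception.

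Genes that 4 cells shared also differed by which cell stood out. Prtn3 apart, cell 19 had no count of P2rx1, an ATP-gated channel, which had 82.5, 53.4, 211 and 60.9 CPM in cells 1, 9, 23 and 24, against at most 43.9 CPM in the 19. Cell 1 had no count of Tnfrsf13b, a receptor of B cell survival factors, which had 95.4, 383, 365 and 301 CPM in cells 9, 19, 23 and 24, against at most 59.1 CPM in the 19. Cell 24 had no count of Ccnd1, cyclin D1, which had 188, 233, 117 and 117 CPM in cells 1, 9, 19 and 23, against at most 69.6 CPM in the 19.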
